A study of Mus musculus with 16 samples.

Results

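Heat shock and endoplasmic reticulum (ER) chaperone genes were followed in mouse embryonic fibroblasts that lack or carry Hmgb1, the gene of a DNA-bending protein of chromatin. The set was defined by gene symbol and comprised 48 genes in 10 groups by role. A probe of the array carried the symbol of 43 of them, out of 16593 genes with a symbol on the array. Of these 43 genes, 39 passed the filter on dim probes and were tested among 8428 genes. No probe was matched for Hspa1b, Hsp90ab1, Sdf2l1, Hsf1 or Atf6. The probes of Dnaja1, Canx, Manf and Ern1 were measured but lay mostly at background and were not tested.

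Chaperones bind unfolded stretches of protein and hold or refold them. In the cytosol, HSP70 proteins work with J-domain partners (DNAJ) that deliver substrates and trigger ATP hydrolysis, HSP90 and the chaperonin CCT finish selected clients such as kinases, actin and tubulin, and small heat shock proteins hold aggregating proteins in a soluble state. Heat shock factor 1 induces many of these genes under stress by binding heat shock elements. In the ER, the HSP70 protein BiP, the HSP90 protein GRP94, lectin chaperones and protein disulfide isomerases fold secreted proteins, and the unfolded protein response raises their genes through ATF6, XBP1 and ATF4. Fibroblasts secrete large amounts of collagen and depend on this machinery.

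Total RNA from 16 cultures was hybridised to Illumina bead arrays. The groups were KO_cycling and Wt_cycling (3 arrays each), KO_G1 and Wt_G1 (3 each), and KO_S and Wt_S (2 each), in which KO is Hmgb1-/- and Wt is wild type for Hmgb1, and G1 and S cells were synchronised by a method the labels do not state. Each pair of KO and Wt cultures came from embryos of 1 Hmgb1+/- mother mated to an Hmgb1+/- male, 3 mothers in all, and cells were used up to passage 3. The strain and the age of the embryos are not given in the labels, and the knockout is constitutive, so cells had lacked the gene throughout development. All values are log2 intensities of a probe after background correction and quantile normalisation, and can be compared between arrays but not between probes.

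The knockout could not be checked on these arrays, since the Hmgb1 probe was detected (detection p under 0.01) on 1 of 16 arrays. Mean intensity per array ran from 394 to 776, and 9970 to 12354 probes per array were detected, with both minima on KO_G1 replicate 1. KO_G1 replicate 1 and Wt_cycling replicate 3 were taken to stand apart from their own groups, with lowest correlations of 0.881 and 0.941. Each correlation belongs to 2 arrays, and KO_G1 replicate 2 and Wt_cycling replicate 2 share these values. The results below that rest on KO_G1 replicate 1 and Wt_cycling replicate 3 are given with and without these 2 arrays. Wt_G1 replicate 1, the partner of KO_G1 replicate 1, also departed from the other Wt_G1 arrays in its markers, and a setting chosen after seeing this leaves out that G1 pair and Wt_cycling replicate 3, 3 arrays in all. All cycling arrays and pair 3 of G1 were on slide 1, while pairs 1 and 2 of G1 and every S array were on slide 2, so slide and phase overlapped in large part. Of 11 fibroblast markers, 10 were tested and 9 were detected on all 16 arrays. Replication markers differed by phase, with 10 of 11 lower in G1 than in cycling cells and 9 of 11 higher in S than in G1. All 4 tested mitosis markers were lower in G1 than in cycling cells. Their summed linear level was 2228 to 5947 in KO_G1, against 9948 to 11278 in KO_cycling. In Wt_G1 it was 4996 to 8740, which reached into the 8594 to 10371 of Wt_cycling.

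Most chaperone genes were expressed in every culture. Of the 39 genes tested, 36 were detected on all 16 arrays, and Hspa1a, Cct2 and Edem1 were the exceptions. The brightest probe of Hspa8, the constitutive cytosolic HSP70, ranged from 14.40 to 14.89 across the arrays and its other probe from 12.44 to 13.41. Those of Hspa9, the mitochondrial HSP70, ranged from 13.79 to 14.65 and from 11.66 to 13.003, so in both genes the dimmer probe varied more. Cct4, a subunit of the chaperonin ring, ranged from 13.40 to 14.07, and P4hb, a protein disulfide isomerase, from 13.54 to 14.32. The 2 arrays that stood apart did so in the chaperone genes too. The median deviation of the 7 ER chaperones from their gene means was 0.68 on Wt_cycling replicate 3 and lay between -0.27 and 0.25 on the other 15 arrays. Hspe1, which encodes the mitochondrial cochaperonin HSP10, had its lowest values, 9.16 and 9.65, on KO_G1 replicate 1 and Wt_cycling replicate 3, against 10.60 to 11.64 elsewhere.

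**Figure D1:**
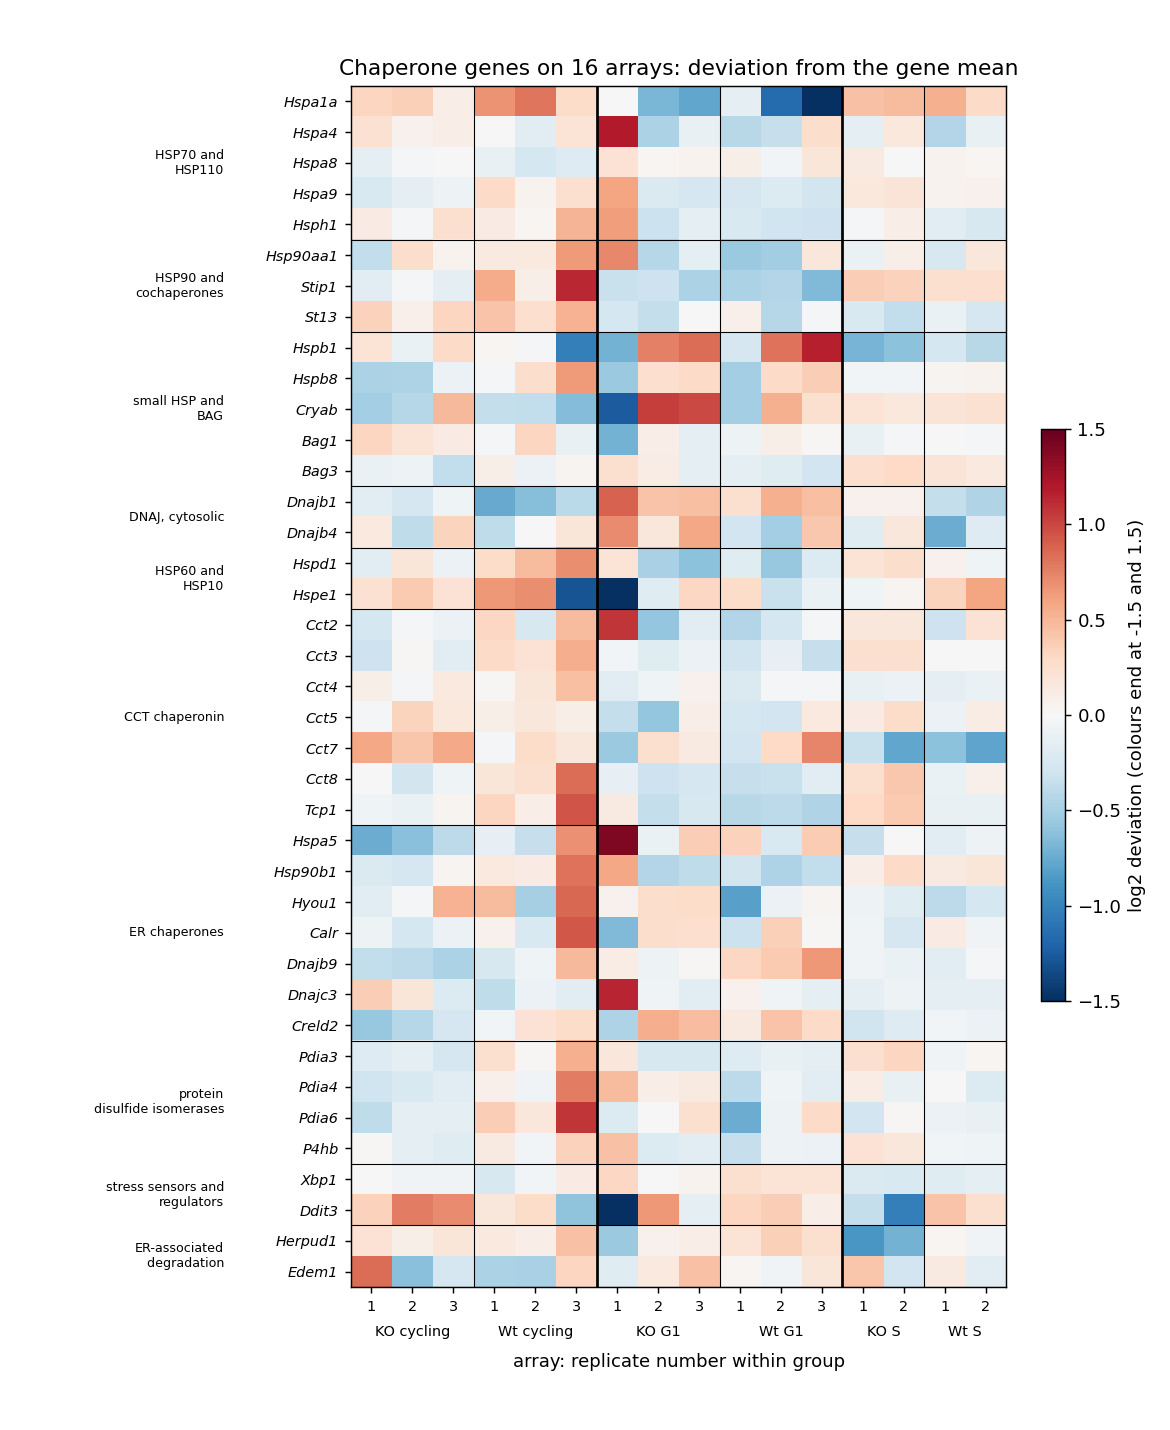
Each row is 1 of the 39 tested chaperone genes and each column 1 of the 16 arrays, grouped by phase with KO left of Wt. Colour gives the log2 deviation of the array from the mean of that gene, and ends at -1.5 and 1.5. Wt_cycling replicate 3 and KO_G1 replicate 1 stand out as columns, Hspa1a is low and Dnajb1 high in G1, and Cct7 is low in S.

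The promoters of Hspa1a and Dnajb1, which differed most clearly between phases, and of 3 ER chaperone genes that carry the ER stress response element are shown so that the elements can be read beside the values. RefSeq windows (GRCm38.p6) of 250 bases before the transcription start were found for 37 of the 48 genes. The ER stress response element, spelled here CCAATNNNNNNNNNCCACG and searched on both strands, occurred in 7 of the 37 (18.9%: Hspa5, Hsp90b1, Calr, Canx, Dnajc3, Creld2 and Pdia6), against 0.13% of 27025 genes. A short form of the heat shock element, GAANNTTC or TTCNNGAA, which reads alike on both strands, occurred in 10 of the 37 (27%: Hspa1a, Hspa1b, Hsph1, Hspb1, Dnaja1, Dnajb4, Hspd1, Hspe1, Cct2 and Cct5), against 14.5% of genes. The 2 forms overlap each other in Hspd1 and Hspe1. In the sequences, which run 5′ to 3′ along the strand of the gene, capitals mark these elements.
Heat shock type, Hspa1a (chr17:34972157-34972406, minus strand, 1 heat shock element) and Dnajb1 (chr8:83607925-83608174, plus strand, neither spelling in this window):
Hspa1a: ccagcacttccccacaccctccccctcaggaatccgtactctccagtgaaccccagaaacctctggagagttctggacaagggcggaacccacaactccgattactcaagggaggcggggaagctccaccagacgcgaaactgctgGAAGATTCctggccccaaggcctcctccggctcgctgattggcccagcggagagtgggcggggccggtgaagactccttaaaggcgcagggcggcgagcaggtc
Dnajb1: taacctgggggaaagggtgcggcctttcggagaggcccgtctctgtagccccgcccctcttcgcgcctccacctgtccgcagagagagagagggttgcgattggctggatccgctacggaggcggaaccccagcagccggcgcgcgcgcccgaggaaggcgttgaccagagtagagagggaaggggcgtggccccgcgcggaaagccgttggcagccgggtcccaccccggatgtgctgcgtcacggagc
ER type, Hspa5 (chr2:34771840-34772089, plus strand, 1 ER element), Creld2 (chr15:88819396-88819645, plus strand, 1 ER element in reverse) and Hsp90b1 (chr10:86705445-86705694, minus strand, 2 ER elements in opposite directions):
Hspa5: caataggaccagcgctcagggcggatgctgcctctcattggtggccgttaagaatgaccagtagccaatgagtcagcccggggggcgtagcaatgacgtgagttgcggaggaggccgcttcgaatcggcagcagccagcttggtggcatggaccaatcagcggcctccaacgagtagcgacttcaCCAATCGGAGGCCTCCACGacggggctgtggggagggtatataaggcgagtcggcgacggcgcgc
Creld2: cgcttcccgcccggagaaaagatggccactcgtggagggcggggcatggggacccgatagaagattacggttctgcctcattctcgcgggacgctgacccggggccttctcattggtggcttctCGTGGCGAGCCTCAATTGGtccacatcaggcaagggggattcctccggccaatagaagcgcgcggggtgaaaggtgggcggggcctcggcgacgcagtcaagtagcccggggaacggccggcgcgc
Hsp90b1: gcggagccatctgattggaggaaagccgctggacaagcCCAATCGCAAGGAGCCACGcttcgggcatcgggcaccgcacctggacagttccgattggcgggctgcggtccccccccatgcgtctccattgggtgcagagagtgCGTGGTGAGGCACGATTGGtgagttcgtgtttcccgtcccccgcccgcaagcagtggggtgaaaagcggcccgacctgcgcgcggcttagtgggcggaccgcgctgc

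The first comparison asked how the chaperone genes differed between G1-synchronised and cycling fibroblasts, taken as the mean over both genotypes. In G1 cells the inducible HSP70 gene Hspa1a, the HSP70-HSP90 adaptors Stip1 and St13, the mitochondrial chaperonin gene Hspd1 and the CCT subunits Cct8 and Tcp1 were lower, and the J-domain genes Dnajb1 and Dnajb9 were higher. Thus 8 of 39 members passed limma (adjusted p under 0.05, Benjamini-Hochberg over all probes), 2 higher and 6 lower. That share (20.5%) was near the 20.8% of all tested genes that passed, of which 10.6% were higher and 10.2% lower. The median difference of the members was -0.13, against -0.03 over all genes.

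Among the HSP70 genes, Hspa1a had log2 values of 7.003, 6.30 and 6.21 on the KO_G1 arrays and 6.85, 5.84 and 5.49 on the Wt_G1 arrays, against 7.31, 7.35 and 7.09 in KO_cycling and 7.66, 7.79 and 7.27 in Wt_cycling. Every G1 value lay below every cycling value, and the probe was not detected on Wt_G1 replicate 3, so that value lay at background. Hspa1a fell by 1.13 ± 0.22 log2 units (SE from limma; 2.19-fold; adjusted p = 0.00267). Hspa1a and Hspa1b are near-identical copies, and a probe for 1 may read both. The other HSP70 and HSP110 genes did not pass, at -0.05 for Hspa4, 0.21 for Hspa8, -0.12 for Hspa9 and -0.28 for Hsph1.

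Stip1, which encodes the adaptor HOP that passes clients between HSP70 and HSP90, had values of 10.88, 10.90 and 10.73 in KO_G1 and 10.74, 10.77 and 10.54 in Wt_G1, against 11.06, 11.19 and 11.07 in KO_cycling and 11.77, 11.30 and 12.34 in Wt_cycling. The groups did not overlap, and the highest value was that of Wt_cycling replicate 3. Stip1 fell by 0.69 ± 0.15 (1.62-fold; adjusted p = 0.00605, limma). St13, which encodes the HSP70-interacting protein HIP, had values of 9.13, 9.03 and 9.39 in KO_G1 and 9.46, 8.96 and 9.37 in Wt_G1, against 9.74, 9.47 and 9.71 in KO_cycling and 9.82, 9.65 and 9.91 in Wt_cycling. The 2 sets of arrays came close without overlapping, and St13 fell by 0.49 ± 0.13 (1.41-fold; adjusted p = 0.0162, limma). Hsp90aa1, the inducible HSP90, was at -0.27 and did not pass.

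Dnajb1, which encodes the HSP40 partner of cytosolic HSP70, ran opposite to Hspa1a. Its values were 13.37, 12.92 and 12.93 in KO_G1 and 12.72, 13.01 and 12.93 in Wt_G1, against 12.31, 12.23 and 12.42 in KO_cycling and 11.73, 11.84 and 12.08 in Wt_cycling. All G1 values exceeded all cycling values. Dnajb1 rose by 0.88 ± 0.12 (1.84-fold; adjusted p = 0.00029, limma), while Dnajb4, another cytosolic J-domain gene, was at 0.19 and did not pass.

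All 7 tested CCT subunits had differences below 0, from -0.10 for Cct2 to -0.49 for Tcp1, and 2 of them passed. Tcp1 (subunit alpha) had values of 12.96, 12.48 and 12.59 in KO_G1 and 12.42, 12.44 and 12.37 in Wt_G1, against 12.77, 12.73 and 12.87 in KO_cycling and 13.14, 12.92 and 13.78 in Wt_cycling. The overlap came from KO_G1 replicate 1, and Tcp1 fell by 0.49 ± 0.15 (adjusted p = 0.0323, limma), with its other probe at -0.72 and also past the threshold. Cct8 (subunit theta) had values of 12.21, 12.02 and 12.07 in KO_G1 and 11.98, 11.99 and 12.15 in Wt_G1, against 12.33, 12.06 and 12.26 in KO_cycling and 12.51, 12.57 and 13.17 in Wt_cycling. The groups overlapped because KO_cycling replicate 2 was low, and Cct8 fell by 0.41 ± 0.13 (adjusted p = 0.046, limma). Cct3, Cct4, Cct5 and Cct7 were at -0.28, -0.21, -0.34 and -0.24.

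Hspd1, which encodes mitochondrial HSP60, had values of 13.36, 12.67 and 12.54 in KO_G1 and 12.96, 12.59 and 12.95 in Wt_G1, against 12.98, 13.33 and 13.07 in KO_cycling and 13.43, 13.63 and 13.86 in Wt_cycling. KO_G1 replicate 1 again lay within the cycling range. At this probe (ILMN_2713841) Hspd1 fell by 0.54 ± 0.16 (adjusted p = 0.0272, limma), whereas its dimmer probe ILMN_2639036 was at -0.30 ± 0.17 and did not pass (adjusted p = 0.239, limma). Its partner Hspe1 was at -0.45 and did not pass.

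In the ER, the genes did not share a direction. Dnajb9, which encodes the BiP cochaperone ERdj4, had values of 11.19, 11.003 and 11.10 in KO_G1 and 11.39, 11.48 and 11.74 in Wt_G1, against 10.72, 10.69 and 10.60 in KO_cycling and 10.84, 11.01 and 11.56 in Wt_cycling. Within each genotype the G1 values were mostly the higher ones, and Dnajb9 rose by 0.41 ± 0.14 (adjusted p = 0.046, limma). The 6 carriers of the ER stress response element that were tested did not pass, at 0.62 for Hspa5 (BiP), 0.36 for Creld2, 0.18 for Dnajc3, -0.08 for Calr, -0.24 for Pdia6 and -0.33 for Hsp90b1 (GRP94). Hspa5 had values of 10.16, 8.66 and 9.13 in KO_G1 and 9.10, 8.53 and 9.14 in Wt_G1, against 8.01, 8.13 and 8.36 in KO_cycling and 8.63, 8.41 and 9.45 in Wt_cycling. The values furthest from the rest of their groups were those of the 2 arrays that stood apart. Hyou1, a large ER HSP70 relative, was at -0.24, and the disulfide isomerases Pdia3, Pdia4 and P4hb were at -0.16, 0.00 and -0.09.

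Of the stress regulators and ER-associated degradation genes, none passed at the brightest probe. Xbp1, the transcription factor spliced on ER stress, was at 0.21, and Edem1, which routes misfolded glycoproteins to degradation, at 0.21. Ddit3, which encodes the stress factor CHOP, was at -0.44 and, at its dimmer probe, at -0.76. Herpud1, which encodes an organiser of the ER degradation complex, gave -0.13 ± 0.13 at probe ILMN_2790241 and -0.46 ± 0.13 (adjusted p = 0.0267, limma) at probe ILMN_2790246, so its 2 probes did not give the same call. Among the small heat shock and BAG genes, Hspb1, Cryab, Hspb8, Bag1 and Bag3 were at 0.54, 0.48, 0.05, -0.26 and 0.02, and none passed.

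Without KO_G1 replicate 1 and Wt_cycling replicate 3, 17 of 39 members passed between G1 and cycling cells (43.6%, against 36.1% of all tested genes), 6 higher and 11 lower. The members added on the higher side were Hspa5 (0.56), Creld2 (0.55), Xbp1 (0.21) and the small heat shock gene Cryab (0.81). Those added on the lower side were Hsp90b1 (-0.38), Hsph1 (-0.35), Hspa9 (-0.25), Hspe1 (-0.47) and Cct3 (-0.24). Without the 3 arrays 19 passed (48.7%, against 43% of all tested genes), with Hspa1a at -1.53 and Dnajb1 at 0.90. With only the 2 arrays left out, the carriers of the ER stress response element Hspa5 and Creld2 were higher in G1 and Hsp90b1 was lower. The other tested carriers, Calr, Dnajc3 and Pdia6, did not pass.

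With each KO and Wt pair as a replicate block, 5 members passed between G1 and cycling cells (16.3% of all tested genes did), and Cct8, Tcp1 and Dnajb9 no longer did (adjusted p = 0.0819, 0.0587 and 0.0888, limma). With the arrays scaled to 1 median instead of quantile normalised, Hspa1a (-1.25) and Dnajb1 (0.93) passed, against 13.7% of all tested genes. Slide and phase could be separated only through the G1 arrays, which lay on both slides. With slide as a block, G1 minus cycling is estimated within slide 1, where G1 had 1 pair, and S minus G1 within slide 2. The slide block and 1 slide alone therefore give the same differences by construction and are not separate checks. With slide as a block, 3 members passed between G1 and cycling cells (6.94% of all tested genes did), namely Hspa1a (-1.56), Stip1 (-0.82) and Dnajb1 (0.83). Within slide 1 alone, where G1 was represented by 1 pair, Hspa1a at -1.56 and Dnajb1 at 0.83 passed, against 6.99% of all tested genes. The fibroblast markers also differed between the phases, with 5 of 10 past the threshold, 4 higher and 1 lower in G1. The 10 differences ran from -1.14 to 5.77, with 5 above 0, 5 below 0 and a median of -0.02. Dcn, a matrix proteoglycan gene detected on all arrays, was 2.10 log2 units higher in G1, and Lum, another, was not detected on any KO_cycling array and was detected on all others. The summed linear level of the fibroblast markers was 62027 to 90377 in KO_G1 and 63439 to 94916 in Wt_G1, each highest in replicate 1, against 45586 to 54984 in KO_cycling and 60045 to 65478 in Wt_cycling. In bulk RNA, fewer cells of a type and less RNA per cell cannot be told apart, and the part of these markers in the chaperone results was not tested.

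**Figure D2:**
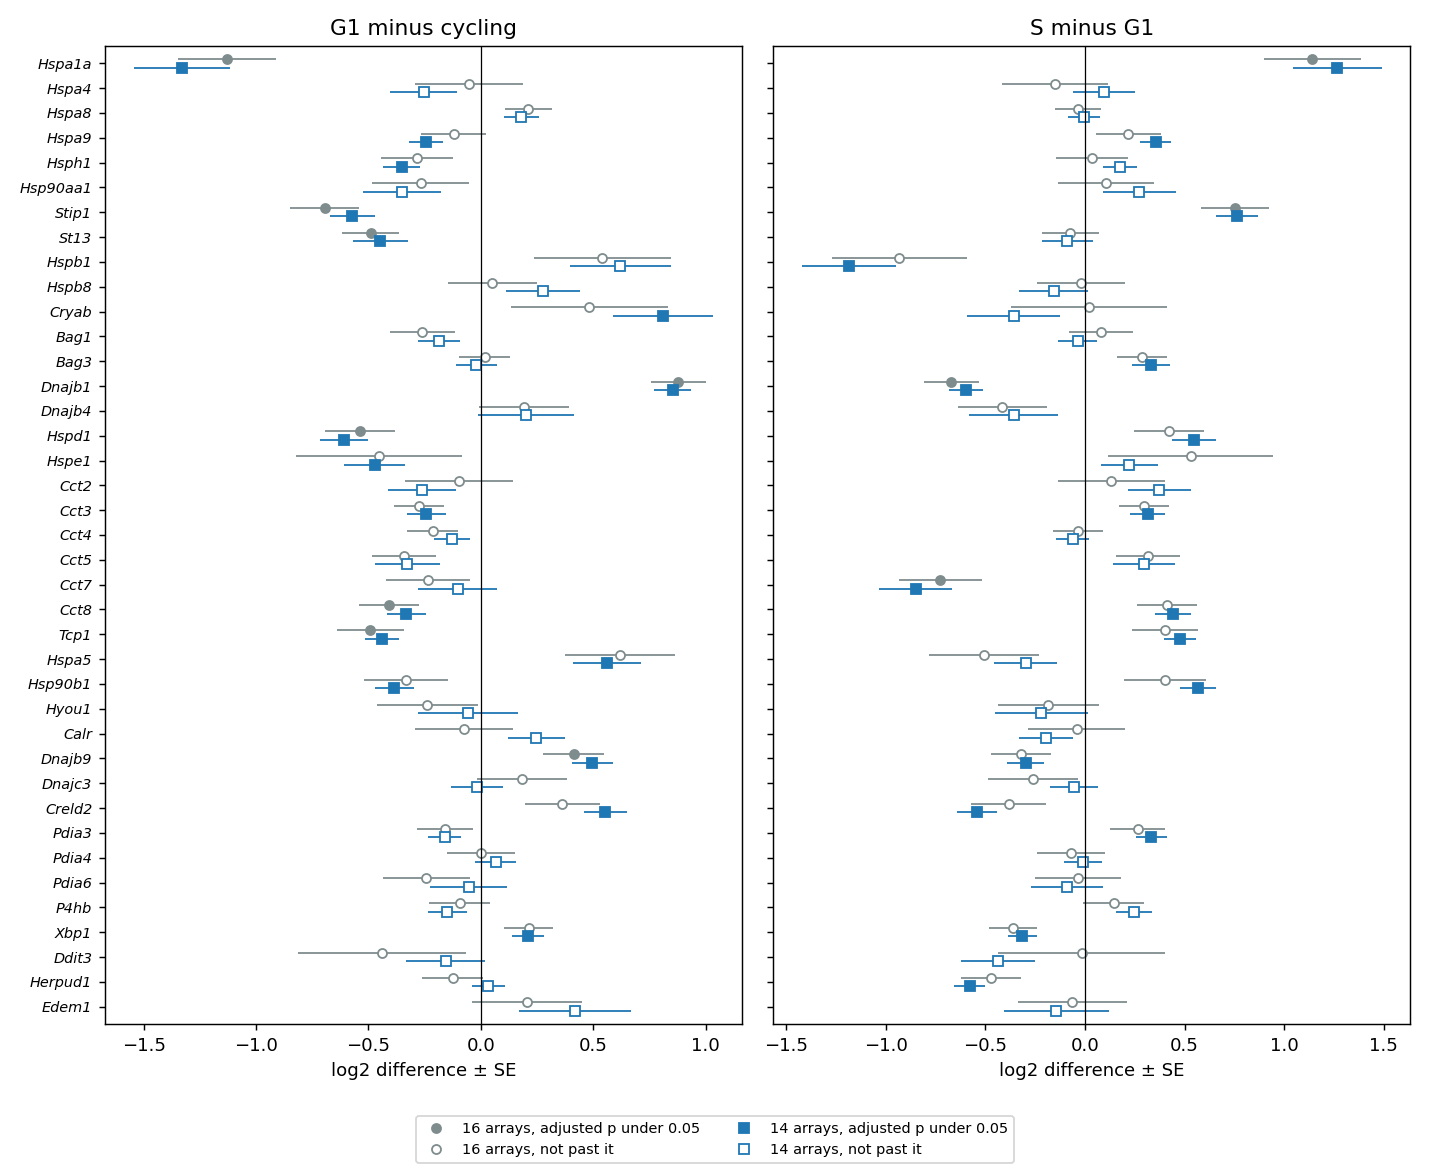
Log2 differences with SE from limma for the 39 tested chaperone genes, G1 minus cycling in the left panel and S minus G1 in the right panel. Circles use 16 arrays and squares the 14 arrays left without KO_G1 replicate 1 and Wt_cycling replicate 3, and filled symbols have an adjusted p under 0.05. Hspa1a, Stip1 and Dnajb1 lie far from 0 on opposite sides in the 2 panels.

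The second comparison set S-synchronised against G1-synchronised cells. In S cells Hspa1a and Stip1 were higher, and Dnajb1 and the CCT subunit gene Cct7 were lower. These 4 of 39 members passed limma (10.3%), against 12.1% of all tested genes (5.98% higher and 6.1% lower), and the member median was -0.02, against 0.03 over all genes. Both comparisons share the G1 arrays, so a deviation of those arrays would move the 2 differences in opposite directions.

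Hspa1a had values of 7.43 and 7.46 in KO_S and 7.53 and 7.27 in Wt_S, all above the highest G1 value of 7.003. It rose by 1.14 ± 0.24 log2 units relative to G1 (2.21-fold; adjusted p = 0.0105, limma). Stip1 had values of 11.58 and 11.56 in KO_S and 11.45 and 11.46 in Wt_S, well above its G1 values, and rose by 0.75 ± 0.17 (1.68-fold; adjusted p = 0.0145, limma). Dnajb1 had values of 12.54 and 12.54 in KO_S and 12.12 and 12.03 in Wt_S, all below its lowest G1 value of 12.72, and fell by 0.67 ± 0.14 (1.59-fold; adjusted p = 0.00888, limma). The S minus cycling differences of Hspa1a, Stip1 and Dnajb1 were 0.01, 0.06 and 0.21 and did not pass. With slide as a block they were -0.64, -0.13 and 0.14, and the S and cycling arrays shared no slide, so a return to the cycling level cannot be read from them.

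Cct7 (subunit eta) had values of 6.93 and 6.49 in KO_S and 6.65 and 6.48 in Wt_S, against 6.71, 7.51 and 7.41 in KO_G1 and 6.98, 7.56 and 8.001 in Wt_G1. KO_G1 replicate 1 lay within the S range and the other G1 arrays above it. Cct7 fell by 0.73 ± 0.21 relative to G1 (1.65-fold; adjusted p = 0.0406, limma). It did not follow the other chaperonin genes, since Cct2, Cct3, Cct5, Cct8 and Tcp1 had positive differences from 0.13 to 0.41 and Cct4 was at -0.03, and none of these passed. Of the remaining members, Hspb1 was at -0.93, Hspe1 at 0.53, Hspa5 at -0.51 and Herpud1 at -0.47 without passing.

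Without the 2 arrays that stood apart, 17 of 39 members passed between S and G1 (43.6%, against 36.9% of all tested genes), 10 higher and 7 lower. Those added on the higher side were Hsp90b1 (0.57), Hspd1 (0.55), Tcp1 (0.48), Cct8 (0.44), Hspa9 (0.35), Pdia3 (0.33), the HSP70 cochaperone gene Bag3 (0.33) and Cct3 (0.31). Those added on the lower side were Hspb1 (-1.18), Herpud1 (-0.58), Creld2 (-0.54), Xbp1 (-0.31) and Dnajb9 (-0.30). Without the 3 arrays 18 passed (46.2%, against 48.3% of all tested genes), with Hspa1a at 1.46 and Dnajb1 at -0.64. With slide as a block, 3 members passed, Hspa1a (0.93), Stip1 (0.69) and Dnajb1 (-0.70), against 7.44% of all tested genes. On slide 2 alone these differences were the same by construction, since the slide block takes them from slide 2. None passed limma there, against 0.237% of all tested genes, while 5 of 39 members had an unadjusted p under 0.05 (18.3% of all tested genes did). With the pair as a replicate block 3 members passed (7.34% of all tested genes did) and Cct7 did not (adjusted p = 0.0647, limma). With median scaling Hspa1a alone passed (1.39), against 7.55%.

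Comparing S-synchronised with cycling cells, St13, Cct7 and Herpud1 were lower, and no member was higher. These 3 of 39 members passed limma (7.69%), against 8.63% of all tested genes, or 3.61% on the lower side. St13 had values of 9.16 and 9.02 in KO_S and 9.28 and 9.14 in Wt_S, below all 6 cycling values, and fell by 0.56 ± 0.14 (1.48-fold; adjusted p = 0.0282, limma). Cct7 had values of 7.85, 7.68 and 7.83 in KO_cycling and 7.25, 7.54 and 7.43 in Wt_cycling, all above its S values, and in S it fell by 0.96 ± 0.21 (1.95-fold; adjusted p = 0.0134, limma).

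Herpud1 at probe ILMN_2790241 had values of 11.65 and 11.81 in KO_S and 12.56 and 12.48 in Wt_S, against 12.75, 12.62 and 12.71 in KO_cycling and 12.68, 12.63 and 12.97 in Wt_cycling. The KO_S values were the lowest of the 16, while the Wt_S values lay just under the cycling range. Herpud1 fell by 0.60 ± 0.15 (1.51-fold; adjusted p = 0.027, limma), and its other probe fell by 0.63 ± 0.15 (adjusted p = 0.0196, limma). Without the 2 arrays that stood apart, Dnajb1 (0.26) and Bag3 (0.31) were also higher and Ddit3 (-0.59) also lower, which made 6 of 39 (30.3% of all tested genes passed there). Without the 3 arrays 7 passed (40.3% of all tested genes did), Hspb1 at -0.56 among them. With slide as a block no member passed limma between S and cycling cells, against 0.392% of all tested genes, and 1 had an unadjusted p under 0.05 (9.39% of all tested genes did). St13, Cct7 and Herpud1 were then at -0.33, -0.45 and -0.44. With the pair as a replicate block Cct7 passed (5.27% of all tested genes did), and Herpud1 and St13 did not (adjusted p = 0.055 and 0.0531, limma). With median scaling none passed, against 5.64%.

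Beside the S results, the summed level of the macrophage markers differed between groups and, within G1, between replicates. Of 7 markers, 5 had a probe, 4 were tested and 3, Cd14, Adgre1 and Lyz2, were detected on all 16 arrays. Their summed linear level was 18969 to 21943 in KO_S and 22235 to 24086 in Wt_S, 5324 to 18156 in KO_G1 and 4826 to 30369 in Wt_G1, and 3618 to 9860 in KO_cycling and 6058 to 7020 in Wt_cycling. Cd14 was 1.39 higher in S than in cycling cells (adjusted p = 0.0332, limma), and the other tested markers did not pass there. None of the 4 passed for G1 minus cycling or S minus G1. Both high G1 levels were those of replicate 1, and the other 4 G1 arrays had levels of 4826 to 5450. Their part in the S and G1 differences was not tested. None of 4 endothelial markers passed the filter on dim probes.

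**Figure D3:**
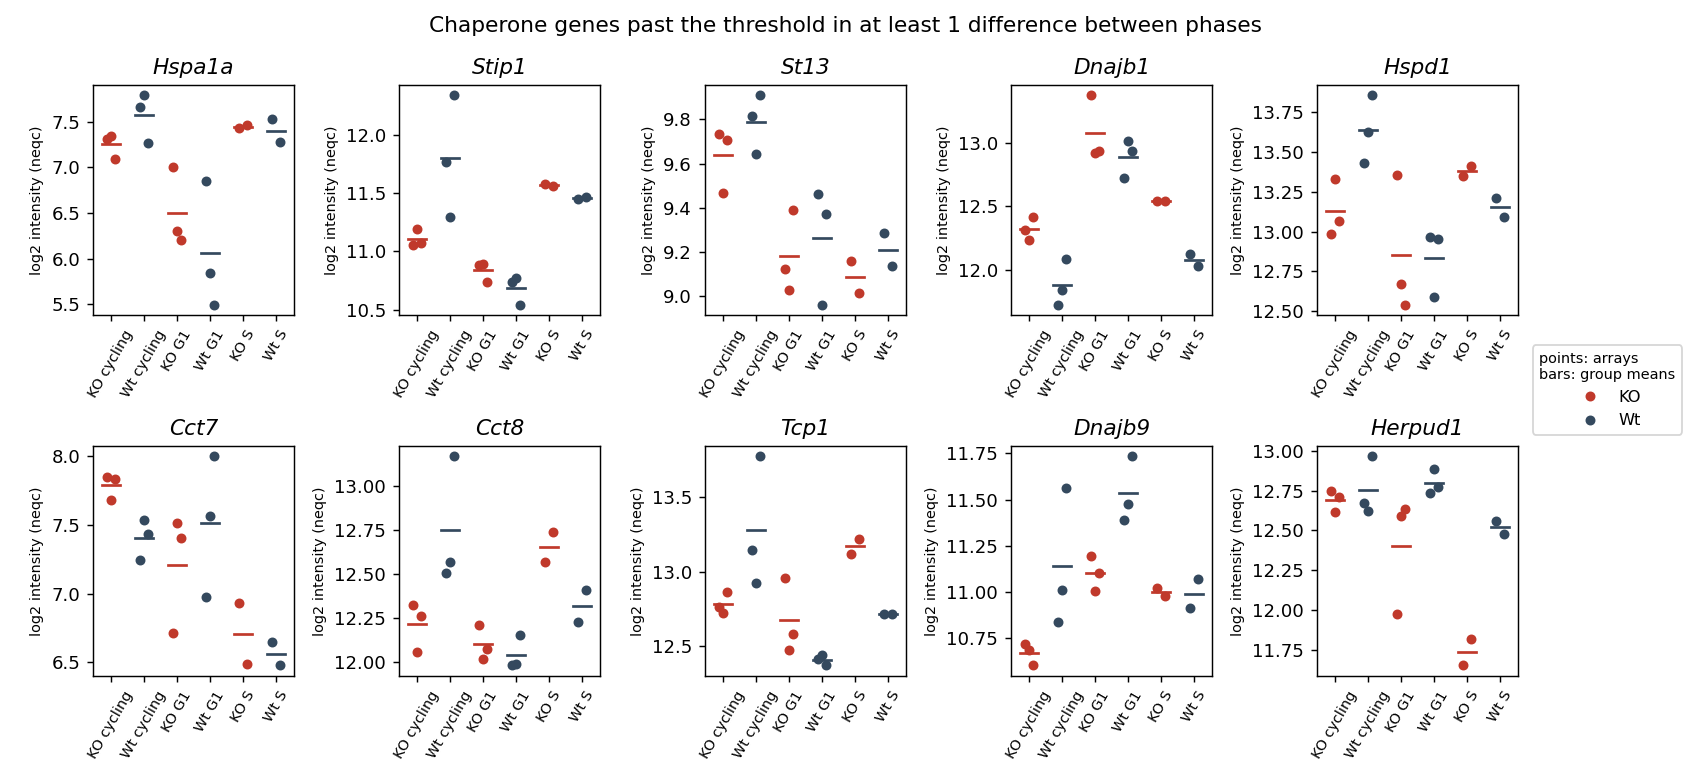
Log2 intensity of the 10 chaperone genes that passed limma in at least 1 difference between phases, 1 panel per gene, with points for arrays and bars for group means. The groups run from cycling to G1 to S with KO left of Wt, and the vertical axes differ between panels and do not start at 0. Dnajb1 peaks in G1, where Hspa1a and Stip1 are lowest, and Herpud1 is lowest in KO_S.

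The question of the series was how loss of Hmgb1 affects gene expression, and for the chaperone genes no genotype difference passed limma with all arrays. Averaged over the phases, 0 of 39 members passed between KO and Wt, against 2.14% of all tested genes, and 4 members had an unadjusted p under 0.05 (13.3% of all tested genes did). Within cycling and within G1 cells, 0 members passed in each, against 0.344% of all tested genes in each, and within S cells 0 members passed against 0.237%. The member median of KO minus Wt averaged over the phases was -0.03, against 0.00 over all genes. Herpud1 and Dnajb1 had the lowest p-values of the average. Some markers also differed by genotype. The fibroblast marker Pdgfra was at -1.32 in KO averaged over phases (adjusted p = 0.0487, limma). The keratinocyte gene Krt14, the only 1 of 4 epithelial markers tested, was not detected on any KO or Wt_cycling array and was detected on all Wt_G1 and Wt_S arrays. It passed the filter only through the Wt_G1 and Wt_S groups. Krt5 was detected on none, Cdh1 was detected on 6 of 16 arrays without passing the filter, and Epcam had no probe. The part of these markers in the values of the chaperone genes was not tested.

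For Herpud1 the separation was in S, where KO_S had 11.65 and 11.81 and Wt_S 12.56 and 12.48 at probe ILMN_2790241, and 11.04 and 11.06 in KO_S and 11.86 and 11.84 in Wt_S at probe ILMN_2790246. The genotypes did not overlap at either probe, with 2 arrays each and both probes read on the same RNA. The share of all tested genes without overlap is not given here. The 2 arrays of each S group were close to each other, with correlations of 0.994 in KO_S and 0.995 in Wt_S. On the same arrays the summed linear level of the 4 tested mitosis markers was 3751 and 3542 in KO_S and 6587 and 6731 in Wt_S, with 4 of 4 below 0 (median -0.81) and 0 past the threshold, or 2 without the 2 arrays. Their part in the Herpud1 difference was not tested. The difference was -0.79 ± 0.23 and -0.80 ± 0.23, with an unadjusted p of 0.00465 and 0.004, and neither passed after adjustment (0.46 and 0.429, limma). In G1 the first probe had 11.97, 12.59 and 12.63 in KO_G1 and 12.74, 12.89 and 12.77 in Wt_G1, which is -0.40, and in cycling cells the difference was -0.06. Averaged over phases, Herpud1 was at -0.42 ± 0.12, lower in KO in 7 of 8 pairs (adjusted p = 0.104, limma). Without the 2 arrays that stood apart it was at -0.31 averaged over phases (adjusted p = 0.0129, limma; 10.1% of all tested genes passed) and at -0.79 in S (adjusted p = 0.00441, limma; 4.38% passed).

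Dnajb1 was at 0.36 ± 0.11 averaged over phases, higher in KO in 6 of 8 pairs (adjusted p = 0.127, limma). In cycling cells it had 12.31, 12.23 and 12.42 in KO and 11.73, 11.84 and 12.08 in Wt, which is 0.44, and in S the difference was 0.47. In G1 the genotypes overlapped, at 0.18. Without the 2 arrays it passed averaged over phases (0.35; adjusted p = 0.0122, limma) and in cycling cells (0.54; adjusted p = 0.0437, limma), where 2.41% of all tested genes passed. These were the 2 members called in that setting for the average, Herpud1 lower and Dnajb1 higher in KO. Without the 3 arrays Dnajb9 (-0.27) passed besides them (15% of all tested genes did). In that setting 2 members passed in cycling cells, Dnajb1 (0.54) and Creld2 (-0.50), and 4 in S, Herpud1 (-0.79), Dnajb1 (0.47), Tcp1 (0.45) and Ddit3 (-1.03), against 7.26% and 9.37% of all tested genes.

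Cycling KO cells had lower values than Wt for many folding genes, without any passing. The member median was -0.19 in cycling cells, against 0.00 over all genes, and 12 of 39 members had an unadjusted p under 0.05, against 11.1% of all tested genes. These were Stip1 (-0.70), Cct3 (-0.50), Cct8 (-0.53), Pdia6 (-0.76), Pdia3 (-0.46), Dnajb9 (-0.47), Creld2 (-0.57), Tcp1 (-0.49), Hspd1 (-0.51), Pdia4 (-0.49) and Hspb8 (-0.63) on the lower side and Dnajb1 on the higher. Pdia6, a disulfide isomerase, had 9.91, 10.16 and 10.15 in KO_cycling and 10.66, 10.46 and 11.36 in Wt_cycling, with the highest value on Wt_cycling replicate 3. Without the 2 arrays the member median was -0.15, against 0.02 over all genes. There 10 of 39 members had an unadjusted p under 0.05, against 19.1% of all tested genes. With the arrays scaled to 1 median instead of quantile normalised, the median of all genes moved to 0.15 in this comparison and that of the members to 0.07, so the sign of the member median turned, and 2 of 39 members had an unadjusted p under 0.05, against 8.35% of all tested genes.

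In G1 the member median of KO minus Wt was 0.15, against -0.02 over all genes. It was 0.02 without the 2 arrays, where the median over all genes is not given here. Dnajb9 was at -0.43 there with no overlap between KO_G1 and Wt_G1, and Dnajb4 at 0.62, each with an unadjusted p under 0.05 (2 of 39 members, against 9.77% of all tested genes). The share of all tested genes without overlap in G1 is not given here. The 4 tested mitosis markers were all below 0 in G1 (median -0.72, or -0.35 without the 2 arrays), with 0 past the threshold. Their part in the G1 values was not tested. In S the member median was 0.05 against 0.03, and Herpud1 and Dnajb1 were the 2 of 39 members with an unadjusted p under 0.05, against 5.39%. Ddit3, a target of the ER stress kinase PERK through ATF4, had 8.44 and 7.77 in KO_S and 9.23 and 9.04 in Wt_S, which is -1.03 ± 0.65 and did not pass with all arrays.

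**Figure D4:**
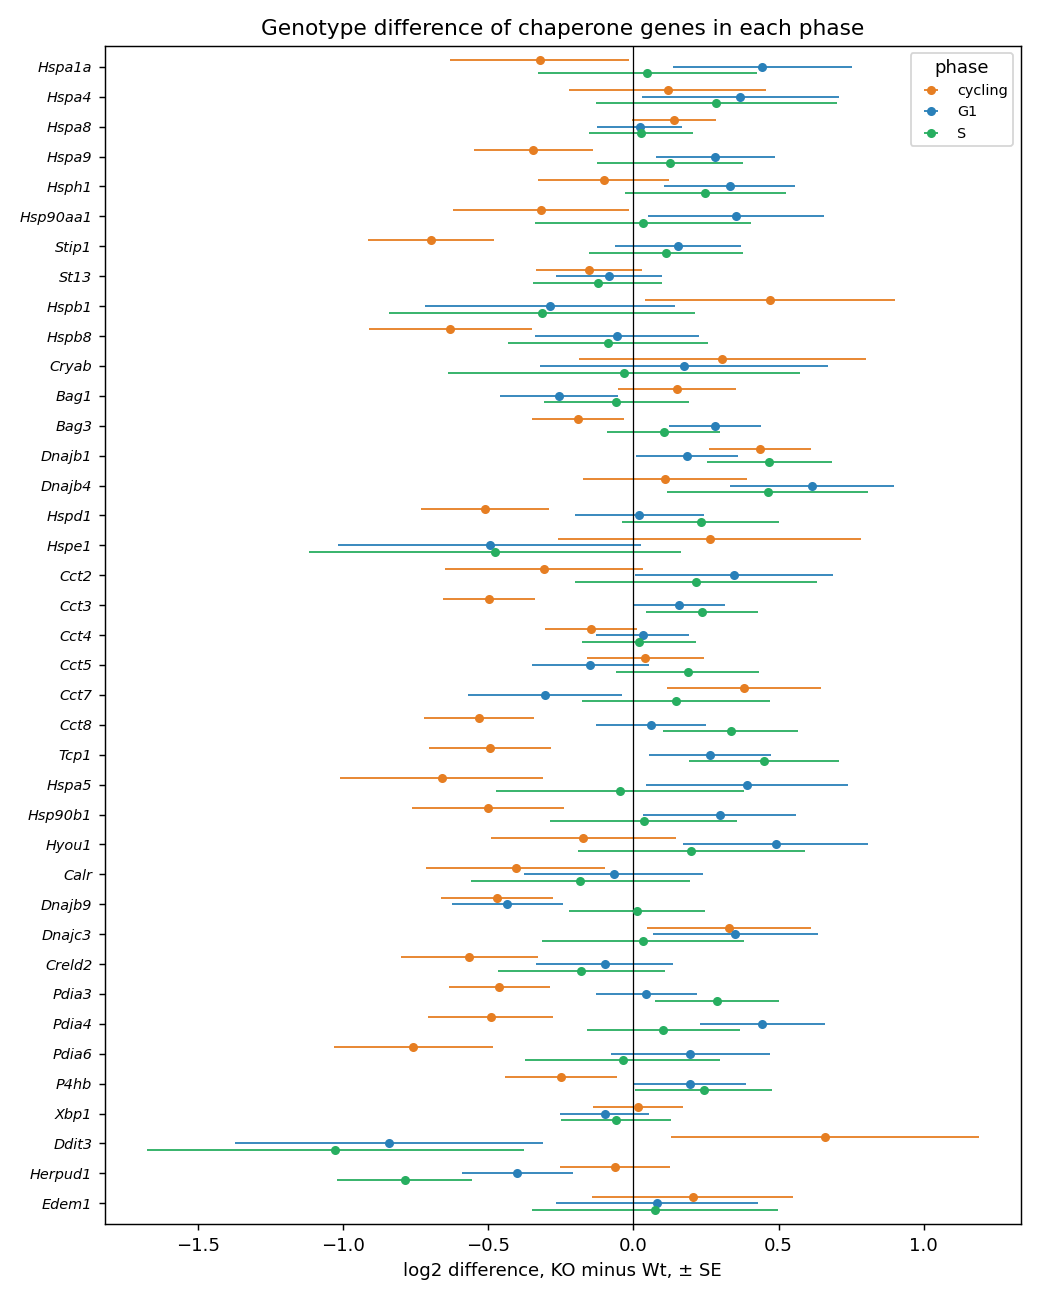
KO minus Wt log2 differences with SE from limma for the 39 tested chaperone genes, in cycling (orange), G1 (blue) and S cells (green), from 16 arrays. Positive values are higher in KO. Many orange points lie left of 0, Dnajb1 lies right of 0 in all 3 phases, and Herpud1 in S is at -0.79, and no value passed the threshold.

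Whether the genotype difference itself changed between phases was tested by the difference of the 2 differences. None of the 39 members passed limma in the 3 pairs of phases, where the share of all tested genes was 0% in each. At an unadjusted p under 0.05 there were 7 members for G1 minus cycling (9.87% of all tested genes), 0 for S minus G1 (1.46%) and 6 for S minus cycling (4.54%). The member medians were 0.45 for G1 minus cycling and 0.35 for S minus cycling, against -0.02 and 0.02 over all genes. They were 0.17 and 0.20 without the 2 arrays and 0.01 and 0.05 with median scaling. Over all genes the median for S minus cycling was -0.01 without the 2 arrays, and the other medians over all genes are not given here. With median scaling the median of all genes was 0.15 for KO minus Wt in cycling cells. The values 0.01 and 0.05 are therefore not distances from the other genes. The disulfide isomerase Pdia4 had the lowest p for G1 minus cycling, at 0.94 ± 0.30 (adjusted p = 0.509, limma). In the setting without the 2 arrays 1 member passed, Herpud1 for S minus cycling at -0.83 ± 0.16 (adjusted p = 0.0493, limma; 0.629% of all tested genes passed). It also passed without the 3 arrays (-0.83; 2.2% of all tested genes passed).

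Wider lists of the same machinery gave few calls with all 16 arrays. The share of all tested genes that passed was 2.14% for KO minus Wt averaged over phases, 20.8% for G1 minus cycling, 12.1% for S minus G1 and 8.63% for S minus cycling, and without the 2 arrays that stood apart 10.1%, 36.1%, 36.9% and 30.3%. Of 35 tested genes for other cytosolic and mitochondrial chaperones, 0 passed between KO and Wt in any phase or averaged (limma), and 1 to 4 had an unadjusted p under 0.05. Over all tested genes, 5.39% to 13.3% had an unadjusted p under 0.05 in these comparisons of KO and Wt. Between G1 and cycling cells 3 passed, all lower, the small heat shock gene Hspb6 (-0.92), the HSP110 relative Hspa4l (-0.74) and the heat shock factor gene Hsf2 (-0.59). Between S and G1 the list had 3 higher, among them Hspb6 (1.09) and the disaggregase gene Clpb (0.66), and 2 lower, the J-domain genes Dnajb2 (-0.67) and Dnajc7 (-0.62). Between S and cycling cells Dnajc7 was lower (-0.66). With the 2 arrays left out 3 were higher and 7 lower for G1 minus cycling, 8 higher and 9 lower for S minus G1, and 1 higher and 1 lower for KO minus Wt averaged over phases.

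Of 37 tested genes for other ER folding and quality control, 0 passed between KO and Wt (limma; 1 to 4 at an unadjusted p under 0.05) and 3 rose in G1 relative to cycling cells, the signal peptidase subunit gene Spcs2 (0.56), the translocon gene Sec62 (0.53) and the ubiquitin ligase gene Syvn1 (0.35), which encodes the core of the degradation complex that Herpud1 organises. Syvn1 fell in S relative to G1 (-0.43), as did the disulfide isomerase Txndc5 (-0.50) and the mannosidase-like gene Edem2 (-0.48). Of 9 tested genes of unfolded protein response signalling, 0 passed between KO and Wt (limma; 0 to 2 at an unadjusted p under 0.05). In S relative to G1, the kinase gene Eif2ak3, which encodes PERK, fell (-0.62), as did the transcription factor gene Creb3l2 (-0.46), and in S relative to cycling cells the CHOP target Trib3 fell (-0.999). The ER list had, without the 2 arrays, 6 higher and 0 lower for G1 minus cycling, 2 higher and 13 lower for S minus G1 and 2 higher and 2 lower for KO minus Wt averaged over phases. The signalling list then had 0 higher and 1 lower for G1 minus cycling, 2 higher and 3 lower for S minus G1 and 2 higher for KO minus Wt averaged over phases.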

How the data were processed

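RNA was measured on 16 Illumina bead arrays. The authors' processing notes name BeadStudio 3.0, and per the file headers the deposited non-normalized file gives probe intensity and a detection p-value for each array. The authors' deposited value table, in linear intensity, has a median of 118 on every array, and its normalisation is not given in the sources used here.

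Intensities were corrected by normexp with the background from the detection p-values, given an offset of 16, quantile normalised and taken to log2 (neqc, limma 3.58.1, R 4.3.3). Symbols were the RefSeq symbols of the Entrez genes that the platform annotation gives. Where there was none, the symbol of the annotation was used (23978 of 25697 probes have 1). A probe was tested if its detection p stayed under 0.01 throughout 1 or more groups (12078 probes), in 1 limma model of 6 group means, two-sided, with Benjamini-Hochberg adjustment and a threshold of 0.05. The model was tested on simulated data with independent noise on each probe and array. These data held no pairs, slide effect or arrays that stood apart, so the test does not cover them. Each gene is counted at its brightest probe. The number of arrays limits precision.

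KO and Wt of 1 replicate number within a phase share a mother per the series description. Their deviations from group means had correlations of 0.196, 0.189 and 0.388 for cycling pairs, of 0.423, 0.403 and 0.357 for G1 pairs and of 0.0644 for the S pairs. KO and Wt of different replicate numbers ran from -0.307 to 0.246 in cycling cells, in part above the pairs, and from -0.396 to 0.276 in G1. In S they were at -0.0644, a mirror of the pairs that centring 2 arrays per group forces. The main model had no block. The pair block was set within a phase, so no model linked cultures of different phases that shared a mother.

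The members, lists and tests were chosen with earlier results of these data known. Members called at their brightest probe are given in full, and of the wider lists up to 4 called genes per comparison. The alternatives were other scaling, the authors' table, other filters, the pair or the slide as a block, 1 slide alone, and arrays left out.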

Additional observations from a re-analysis of the deposited data

How the results depend on the processing

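The counts of the 39 members past the threshold depended on the arrays used and on the blocks. Without KO_G1 replicate 1 and Wt_cycling replicate 3, 2 members passed for KO minus Wt averaged over phases, 1 in cycling cells, 1 in S, 17 for G1 minus cycling, 17 for S minus G1, 6 for S minus cycling and 1 for the genotype difference in S minus cycling. Without these 2 and Wt_G1 replicate 1, a setting chosen after seeing the data, the same counts were 3, 2, 4, 19, 18, 7 and 1. With median scaling the counts were 2 for G1 minus cycling (1 higher and 1 lower), 1 for S minus G1 (higher) and 0 for S minus cycling. With slide as a block they were 3 for G1 minus cycling and 0 for S minus cycling, with slide 1 alone 2 for G1 minus cycling, and with slide 2 alone 0 for S minus G1. With the replicate block within phase (each KO and Wt pair), 5 members passed for G1 minus cycling and 1 for S minus cycling, and the count for S minus G1 was 3. No member passed between KO and Wt with this block. The share of all tested genes for KO minus Wt there is not given here, so that count cannot be set against it. The cause of the shifts in the counts was not tested, except that 1 slide alone has fewer arrays.

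With single arrays left out, the counts ran from 4 to 15 for G1 minus cycling, 1 to 14 for S minus G1, 0 to 3 for S minus cycling and 0 to 1 for KO minus Wt averaged over phases, and were 0 in the other comparisons of genotype. The highest counts, 15, 14 and 1, were those without KO_G1 replicate 1. The share of all tested genes in these single-array runs is not given here. With KO_G1 replicate 1 and Wt_cycling replicate 3 both left out, that share also rose. It went from 20.8% to 36.1% for G1 minus cycling and from 12.1% to 36.9% for S minus G1. For G1 minus cycling, 4 passed without KO_cycling replicate 2 or Wt_G1 replicate 2, and for S minus cycling 0 without KO_S replicate 2 or either Wt_S array. For S minus G1, 6 passed without Wt_cycling replicate 3, and 1 passed without KO_S replicate 2 and without either Wt_S array. An S group left with 1 array was assumed to vary like the other groups.

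For the members named with a call, no alternative turned the sign. Dnajb1 and Hspa1a in G1 minus cycling passed in every alternative run that tested them, and Stip1 and St13 there passed in all 16 runs without a single array. The authors' table kept each of these calls, with Hspa1a at -0.63 in G1 minus cycling and 0.63 in S minus G1. Other calls were less stable over the 16 runs. Cct8 and Dnajb9 in G1 minus cycling were lost in 13 each, Tcp1 in 7, and Cct7 in S minus G1 in 12. Herpud1 and St13 in S minus cycling were lost in 7 each. Over all tested genes, median scaling gave 496 higher and 140 lower for S minus G1 (504 and 514 with quantile normalisation), 409 and 66 for S minus cycling (423 and 304), 6 and 2 for KO minus Wt in cycling cells (12 and 17), and 0 and 16 in G1 (6 and 23).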
